A study of Homo sapiens with 6 samples.

Results

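Genes tied to the roles of the retinal pigment epithelium (RPE) were examined in ARPE-19 cells, an established human RPE line. The cells were under erastin with and without vitamin K1 (VK1). A list of 36 genes was drawn up by role, covering the visual cycle and retinoid handling (10 genes), RPE transcription factors (5), melanosome and pigment (9), surface channels, receptors and transporters (5), and junctions and apical membrane (7). Every row of the 6 expression tables whose gene symbol is on that list was taken. Of the 36 genes, 32 have a row among the 33496 genes of each table, while RGR, TTR, OCA2 and CLDN19 were not analysed here.

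All 6 libraries are total RNA from wild-type cells given erastin (5 μM, 24 h), a blocker of cystine uptake that triggers ferroptosis, an iron-dependent cell death. In 3 libraries erastin was given alone (Era), and in 3 the cells were pretreated with VK1 (10 μM, 1 h) before the same erastin treatment (Era+VK). The cell line field of the labels counts upwards from ARPE-19, but each title says ARPE-19, and the libraries are treated here as that line. No library of cells without erastin was analysed here, so the levels below show how far erastin-treated cells expressed the RPE genes, not what erastin did to them. In bulk RNA of this kind, fewer cells of a type and less RNA per cell cannot be told apart. Nothing in the labels says that the 3 libraries of a group came from separate cultures, so p-values measure only the spread between these libraries, which may be technical.

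Values are FPKM (fragments per kilobase of transcript, scaled for how deeply each library was sequenced), with between 11924 and 12027 genes at 1 FPKM or more in a library. Depth is unknown. Low values did not fall on multiples of a single read at any depth tried, so it could not be read from them. A 0 is reported only as listed at 0. Era+VK replicates 2 and 3 stand apart by transcripts of 11 erythroid genes, such as globins, which sum to 239 and 232 FPKM there. In the other 4 libraries the same 11 genes sum to between 0.07 and 0.21 FPKM. For the genes of the list with an unadjusted p under 0.05 or with groups that do not overlap, the value of Era+VK replicate 1 alone against Era, which holds no such excess, is therefore given beside the value of all libraries.

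The RPE is a single pigmented layer behind the photoreceptors. It returns the light-bleached retinoid chromophore to the photoreceptors through the visual cycle, absorbs stray light with melanin made in melanosomes, and seals the outer retina with tight junctions. It also carries lactate, ions and water between retina and choroid. The transcription factors MITF and OTX2 are known to drive the pigment enzyme genes in RPE development, and MITF binds short promoter elements of the M-box type.

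To show the kind of element concerned, the 250 bases upstream of the RefSeq start sites (build GRCh38.p14) were searched for TCATGTG, or CACATGA on the other strand, the letters at the core of the M-box. The letters were present in 2.52% of all 35116 windows and in 9.26% of the 54 windows of the list, since many genes have several. These 5 windows belong to TYRP1, TYR, DCT, GPR143 and STRA6, out of 27 genes on the list with a window. Of the 7 pigment genes with a window, 4 hold the letters. A match is a description of letters and not a measured binding site. MITF was already known to drive the pigment enzyme genes, so the shares above are not a test of the list. The stretches of these 4 pigment genes are printed 5′ to 3′ with the matched letters in capitals. Their levels are given below, and any link between letters and levels was not tested. For TYRP1 (chr9:12693135-12693384, plus strand) and DCT (chr13:94479683-94479932, minus strand) the whole window is shown. For TYR (chr11:89177760-89177786, plus strand) and GPR143 (chrX:9765892-9765918, minus strand) only the matched letters and 10 bases on each side are shown, the first of 2 matches in GPR143. Upstream refers to the RefSeq start, because the TYRP1, TYR and GPR143 windows lie inside the longer GENCODE 29 genes. The TYR and GPR143 windows also overlap an annotated UTR there.
TYRP1: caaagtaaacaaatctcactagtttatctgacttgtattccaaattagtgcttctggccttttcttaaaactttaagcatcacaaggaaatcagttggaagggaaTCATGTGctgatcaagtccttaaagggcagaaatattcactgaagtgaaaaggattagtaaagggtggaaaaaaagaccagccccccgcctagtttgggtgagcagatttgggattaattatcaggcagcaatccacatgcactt
TYR: gaaaagtcagTCATGTGcttttcagag
DCT: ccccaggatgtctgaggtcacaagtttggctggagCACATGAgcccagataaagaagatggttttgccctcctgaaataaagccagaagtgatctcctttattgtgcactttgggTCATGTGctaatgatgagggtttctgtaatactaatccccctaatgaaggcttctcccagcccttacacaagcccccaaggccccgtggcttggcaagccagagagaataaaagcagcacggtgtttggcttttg
GPR143: aggcccagggCACATGAtgccgccccc

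In the erastin-treated cells all 5 RPE transcription factors averaged 1 FPKM or more, as did 4 of 5 surface genes, 4 of 6 junction and apical genes with a row, 3 of 8 visual cycle genes and 2 of 8 pigment genes. The melanin enzymes TYR, TYRP1 and DCT and the visual cycle isomerase RPE65 were all below 1 FPKM. Of the 32 genes with a row, EZR alone had a mean of at least 100 FPKM, 10 lay between 10 and 100 FPKM, 7 between 1 and 10, 7 between 0.1 and 1, and 7 under 0.1. RPE65, STRA6, DCT, TRPM1, CDH1 and CDH3 were under 0.1 FPKM in each of the 6 libraries. In all, 18 of the 32 (56.3%) averaged 1 FPKM or more, against 35.8% of all genes listed. The 32 were chosen by role and the other share covers all 33496 genes, so the shares describe unlike sets. BEST1 is among the 18 by its mean, although it read 0.65 FPKM in Era replicate 2 and 0.60 FPKM in Era+VK replicate 2. The comparison of the groups was limited to those 18.

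**Figure D1:**
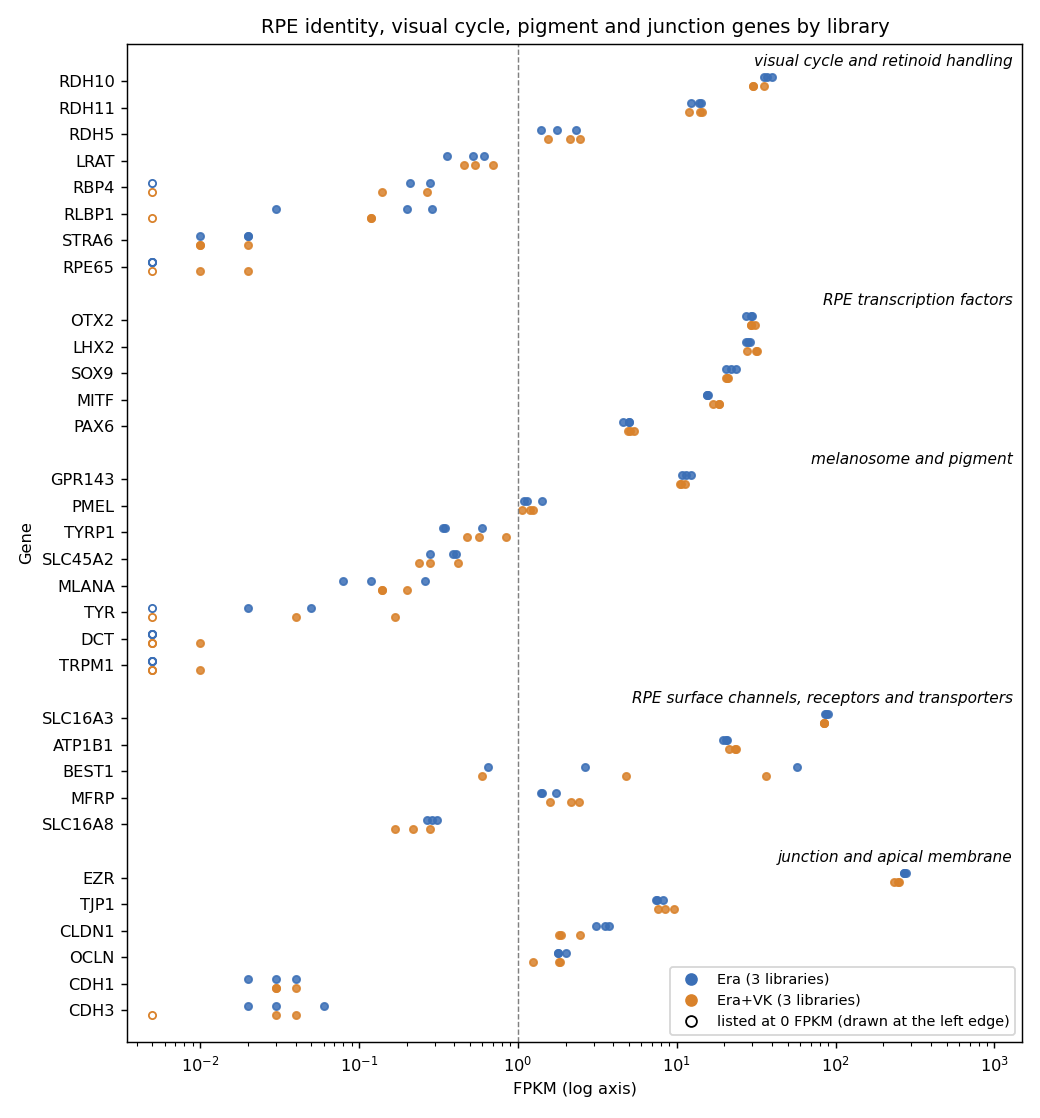
FPKM of each of the 32 genes in each library on a log axis, grouped by role, with Era in blue, Era+VK in orange and values listed at 0 as open points at the left edge. The dashed line is 1 FPKM. All 5 transcription factors lie to its right, TYR, DCT, TRPM1, RPE65 and STRA6 far to its left, and the points of BEST1 spread from 0.60 to 57.0 FPKM.

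Between Era+VK and Era, none of the 18 genes had an adjusted p under 0.05 (limma on log2(FPKM + 1), Benjamini-Hochberg over 11981 genes), while 74 of all 11981 genes tested did, or 0.618%. That total was 2, 2 and 5 without Era replicates 1, 2 and 3 in turn and 42 without Era+VK replicate 3. At an unadjusted p under 0.05, MITF, ATP1B1 and MFRP were higher in Era+VK (16.7% of 18, against 10.4% of all genes tested), and CLDN1, EZR and RDH10 were lower (16.7%, against 5.42%). The groups did not overlap for MITF and ATP1B1 with Era+VK higher (11.1%, against 15.1% of all genes tested) and for CLDN1, EZR, RDH10 and SLC16A3 with Era+VK lower (22.2%, against 7.04%). The median log2 fold change of the 18 genes was 0.0002, against 0.03 for all genes tested, with 9 higher and 9 lower by sign. Fold changes are Era+VK minus Era on the log2(FPKM + 1) scale and are smaller than the FPKM ratio for low genes.

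**Figure D2:**
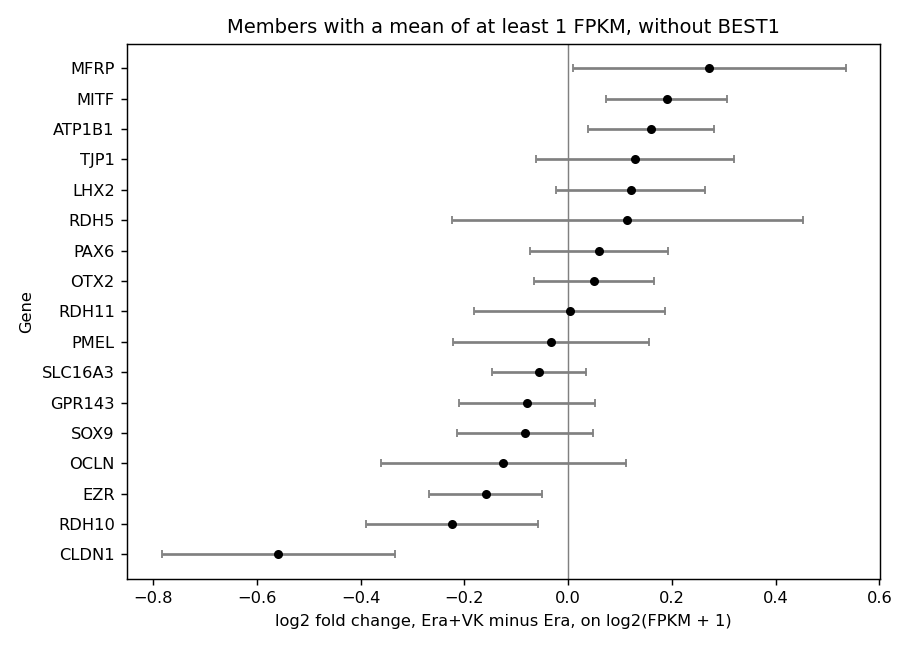
Log2 fold change, Era+VK minus Era on log2(FPKM + 1), of 17 of the 18 tested genes. Points are limma estimates over 3 libraries per group and bars their unadjusted 95% confidence intervals. CLDN1 at -0.56 lies farthest from 0, MFRP at 0.27 is the highest, and 11 intervals include 0. BEST1 is left out because its interval, -3.42 to 3.42, would fill the axis.

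The 5 transcription factors that specify or maintain the RPE were all expressed, at levels with little spread between libraries. MITF, the basic helix-loop-helix factor of pigment cells, read 15.8, 15.5 and 15.6 FPKM in Era replicates 1, 2 and 3 and 18.6, 18.6 and 16.8 FPKM in Era+VK replicates 1, 2 and 3. All 3 Era+VK libraries were above all 3 Era libraries, with means of 18.0 ± 1.02 and 15.6 ± 0.163 FPKM (SD, n = 3 each). The log2 fold change was 0.19 (SE 0.05, 95% interval 0.07 to 0.31), with an adjusted p of 0.151 in limma, and Era+VK replicate 1 alone gave 0.24.

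OTX2, the homeobox factor that acts with MITF on pigment genes, read 30.0, 27.5 and 29.5 FPKM in Era and 31.4, 29.5 and 29.3 FPKM in Era+VK. LHX2, a LIM homeobox factor of the early eye field, read 28.8, 27.1 and 28.1 FPKM in Era and 31.8, 27.9 and 32.2 FPKM in Era+VK. For both the groups overlapped, with log2 fold changes of 0.05 (-0.07 to 0.17, adjusted p = 0.672 in limma) for OTX2 and 0.12 (-0.02 to 0.26, adjusted p = 0.391) for LHX2. OTX2 and LHX2 each stood above 96.0% of the 31325 genes with a value above 0 in any library.

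SOX9, which is known to act with OTX2 on visual cycle genes, read 23.7, 22.1 and 20.5 FPKM in Era and 20.8, 20.5 and 21.1 FPKM in Era+VK. Its log2 fold change was -0.08 (-0.21 to 0.05, adjusted p = 0.510 in limma). PAX6, the paired-box factor of eye development, was the lowest of the 5, at 5.03, 4.58 and 5.05 FPKM in Era and 5.40, 4.92 and 5.08 FPKM in Era+VK. Its log2 fold change was 0.06 (-0.07 to 0.19, adjusted p = 0.655). For SOX9 and PAX6, too, the libraries of the groups overlapped.

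The visual cycle genes split by level. RPE65, the isomerase that makes 11-cis retinol and the marker most often used for mature RPE, was listed at 0 in all 3 Era libraries. Of the Era+VK libraries, replicate 1 read 0.02 FPKM, replicate 3 read 0.01 FPKM and replicate 2 was listed at 0. LRAT, which makes the retinyl esters that RPE65 uses, lay between 0.36 and 0.70 FPKM, with the groups overlapping. RLBP1, the retinaldehyde carrier CRALBP, was between 0.03 and 0.29 FPKM in 5 libraries and listed at 0 in Era+VK replicate 2. STRA6, the membrane receptor for retinol-binding protein, read 0.01 or 0.02 FPKM in each library. RBP4, the retinol-binding protein itself, was listed at 0 in 1 library of each group and reached at most 0.28 FPKM.

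The retinol dehydrogenases of the list were expressed, RDH10 the most. RDH10, which oxidizes retinol to retinaldehyde, read 37.3, 39.6 and 35.3 FPKM in Era and 30.4, 35.3 and 30.1 FPKM in Era+VK. The lowest Era library (35.34 FPKM) and the highest Era+VK library (35.29 FPKM) nearly met, so the groups did not overlap but were separated by less than 0.1 FPKM. The log2 fold change was -0.22 (SE 0.07, 95% interval -0.39 to -0.06), with an adjusted p of 0.206 in limma, and -0.29 for Era+VK replicate 1 alone.

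RDH11, a dehydrogenase of broad tissue distribution, read 13.9, 12.3 and 14.2 FPKM in Era and 14.1, 12.04 and 14.4 FPKM in Era+VK, so the groups covered almost the same range. Its log2 fold change was 0.00 (-0.18 to 0.19, adjusted p = 0.991 in limma). RDH5, the 11-cis retinol dehydrogenase of the RPE, read 1.77, 1.40 and 2.31 FPKM in Era and 2.13, 2.48 and 1.56 FPKM in Era+VK, with a log2 fold change of 0.11 (-0.22 to 0.45, adjusted p = 0.747). In each library RDH10 was between 14.2 and 28.3 times RDH5 in FPKM. In GENCODE 29, 68.2% of the exonic bases of RDH5 also belong to the readthrough gene BLOC1S1-RDH5 on the same strand, so the RDH5 value can hold fragments of that transcript.

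Of the 25 other retinoid genes taken as context, 24 had a row and 14 were tested. None had an adjusted p under 0.05, 2 were higher in Era+VK at an unadjusted p under 0.05 (14.3%, against 10.4% of all genes tested) and none lower, and their median log2 fold change was 0.02. ALDH1A3, which oxidizes retinaldehyde to retinoic acid, was the most abundant of them, at 99.3, 99.8 and 91.7 FPKM in Era and 132, 132 and 117 FPKM in Era+VK. Every Era+VK library was above every Era library, with a log2 fold change of 0.38 (0.24 to 0.53) and an adjusted p of 0.0516 in limma, just outside the threshold. DHRS3, which reduces retinaldehyde back to retinol, had a mean of 35.5 FPKM with a log2 fold change of 0.05, and the receptor RXRB a mean of 15.6 FPKM with 0.02.

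Of the 8 pigment genes with a row, GPR143 and PMEL averaged 1 FPKM or more. GPR143, the receptor of the melanosome membrane that is mutated in ocular albinism, read 11.4, 10.8 and 12.3 FPKM in Era and 11.3, 10.6 and 10.5 FPKM in Era+VK. Its log2 fold change was -0.08 (-0.21 to 0.05, adjusted p = 0.532 in limma). PMEL, whose fibrils carry melanin in the melanosome, read 1.42, 1.10 and 1.15 FPKM in Era and 1.25, 1.07 and 1.19 FPKM in Era+VK, with a log2 fold change of -0.03 (-0.22 to 0.16, adjusted p = 0.880). For neither gene were the groups apart.

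TYR, the rate-limiting enzyme of melanin synthesis, read 0.02, 0 and 0.05 FPKM in Era and 0.04, 0.17 and 0 FPKM in Era+VK, so 1 library of each group was listed at 0. DCT, the dopachrome tautomerase, was listed at 0 in 5 libraries and at 0.01 FPKM in Era+VK replicate 1. TYRP1, the third enzyme of the family, read 0.60, 0.35 and 0.34 FPKM in Era and 0.84, 0.48 and 0.57 FPKM in Era+VK, with the groups overlapping. Of the 4 genes whose stretches are printed above, GPR143 was thus the only one above 1 FPKM. STRA6, the other gene of the list with the letters, read 0.01 or 0.02 FPKM in each library. Whether MITF or the letters bear on these levels was not tested.

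The other pigment genes were low throughout. SLC45A2, a melanosome transporter, lay between 0.24 and 0.42 FPKM and MLANA, a melanosome membrane protein, between 0.08 and 0.26 FPKM. TRPM1, a cation channel known in melanocytes and in bipolar cells of the retina, was listed at 0 in 5 libraries and at 0.01 FPKM in Era+VK replicate 2. Of 28 other melanosome genes taken as context, all with a row, 23 were tested and 0 had an adjusted p under 0.05 in limma. At an unadjusted p under 0.05, 3 were higher in Era+VK (13.0%, against 10.4% of all genes tested) and none lower (against 5.42%), and the median log2 fold change was 0.02. The most abundant were CD63, a tetraspanin that takes part in PMEL sorting (mean 195 FPKM, log2 fold change -0.10), GPNMB, a relative of PMEL (173 FPKM, 0.10), and RAB32, a small GTPase of cargo transport to melanosomes (60.7 FPKM, 0.08).

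The highest and the lowest of the surface genes were both lactate carriers. SLC16A3 (MCT4), a proton-coupled lactate exporter, read 90.2, 87.4 and 86.3 FPKM in Era and 85.1, 84.1 and 84.4 FPKM in Era+VK, above 99.0% of genes. The groups did not overlap, but the difference was small, with a log2 fold change of -0.06 (-0.15 to 0.03, adjusted p = 0.519 in limma) and -0.05 for Era+VK replicate 1 alone. SLC16A8 (MCT3), the lactate carrier of the basal RPE membrane, lay between 0.17 and 0.31 FPKM, so that SLC16A3 was 282 to 495 times SLC16A8 within a library. SLC16A1 (MCT1) had a mean of 36.5 FPKM, SLC16A3 being 2.24 to 2.42 times as high, and BSG, the chaperone that brings these carriers to the membrane, a mean of 311 FPKM. Their log2 fold changes were -0.11 (adjusted p = 0.313) and -0.08 (adjusted p = 0.434).

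ATP1B1, the beta subunit of the sodium pump that the RPE keeps on its apical side, read 20.4, 19.7 and 20.8 FPKM in Era and 23.7, 21.3 and 23.4 FPKM in Era+VK. All Era+VK libraries were above all Era libraries, with means of 22.8 ± 1.29 and 20.3 ± 0.575 FPKM (SD, n = 3 each). The log2 fold change was 0.16 (SE 0.05, 95% interval 0.04 to 0.28) with an adjusted p of 0.216 in limma, and Era+VK replicate 1 alone gave 0.22. ATP1B3, another beta subunit, had overlapping groups, with a mean of 40.3 FPKM and a log2 fold change of -0.10 (adjusted p = 0.510). ATP1B3 was 2.02 to 2.07 times ATP1B1 in the Era libraries and 1.49 to 1.87 times in the Era+VK libraries. Of the 13 pump and carrier partners taken as context, 9 were tested, 0 had an adjusted p under 0.05, none was higher and 2 were lower at an unadjusted p under 0.05 (22.2%, against 5.42% of all genes tested).

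BEST1, the bestrophin chloride channel of the basolateral RPE membrane, was the exception in spread. It read 2.65, 0.65 and 57.0 FPKM in Era and 36.5, 0.60 and 4.80 FPKM in Era+VK, with 1 high library in each group. The highest value was 95.0 times the lowest, whereas for the other 17 tested genes that ratio was 1.07 to 2.07. Its coefficient of variation, 141%, ranked 19 of 11981 genes tested. The log2 fold change was -0.00 with an interval of -3.42 to 3.42, too wide to show a difference of the size seen in the other genes.

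BEST1 (chr11:61949821-61965515, plus strand, GRCh38, GENCODE 29) overlaps FTH1 (chr11:61959718-61967660, minus strand), the ferritin heavy chain gene, over 5798 bases. The genes share 1267 exonic bases, 14.2% of the exonic bases of BEST1. FTH1 lay between 3288 and 3753 FPKM, and BEST1 amounted to 0.0180% to 1.52% of it. Whether sequencing kept the strand is not given in the sources used here, so fragments of the genes cannot be told apart in the shared bases, and the part of FTH1 in the BEST1 values was not tested. FTH1 spread far less than BEST1. It read 3753 FPKM in Era replicate 3, where BEST1 was highest, and 3343 FPKM in Era+VK replicate 2, where BEST1 was lowest. In Era+VK replicate 1, with BEST1 at 36.5 FPKM, FTH1 read 3300 FPKM. In Era replicate 2, with BEST1 at 0.65 FPKM, FTH1 read 3575 FPKM.

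**Figure D3:**
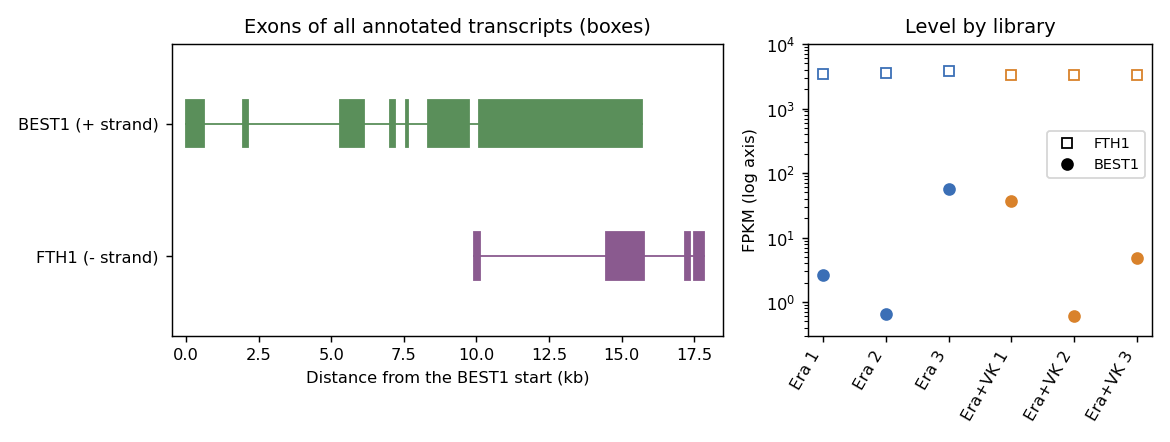
Left, exons of BEST1 and FTH1 (boxes, all annotated transcripts merged) by distance from the BEST1 start in kb. Right, FPKM on a log axis in each library, BEST1 as filled circles and FTH1 as open squares, Era in blue and Era+VK in orange. BEST1 ranges from 0.60 to 57.0 FPKM and FTH1 from 3288 to 3753 FPKM.

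MFRP, a frizzled-related membrane protein of the RPE, read 1.74, 1.41 and 1.42 FPKM in Era and 2.44, 2.16 and 1.59 FPKM in Era+VK. Era+VK replicate 3 lay within the Era range, so the groups overlapped. The log2 fold change was 0.27 (0.01 to 0.53) with an adjusted p of 0.303 in limma, and 0.45 for Era+VK replicate 1 alone. MFRP shares 34.7% of its exonic bases with C1QTNF5, a secreted RPE protein transcribed from the same strand. C1QTNF5 had the opposite sign, at 8.88, 9.56 and 9.88 FPKM in Era and 6.75, 7.55 and 7.52 FPKM in Era+VK, with a log2 fold change of -0.34 (adjusted p = 0.0628). How fragments of the shared bases were divided is not given in the sources used here.

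Of the 18 tested genes of the list, the one closest to the threshold was a junction gene. CLDN1 (ENSG00000163347, chr3:190305701-190322475, minus strand, GRCh38), which encodes the tight junction protein claudin-1, read 3.09, 3.56 and 3.75 FPKM in Era and 1.81, 1.86 and 2.45 FPKM in Era+VK. Every Era+VK library was below every Era library, and the means were 2.04 ± 0.356 and 3.47 ± 0.340 FPKM (SD, n = 3 each), a ratio of 0.589. The log2 fold change was -0.56 (SE 0.10, 95% interval -0.78 to -0.33), with an unadjusted p of 0.000489 and an adjusted p of 0.0552 in limma. It passed the threshold in 3 of 14 other settings, 1 of them without Era+VK replicate 3 (adjusted p = 0.0443), with adjusted p-values from 0.0375 to 0.223, and kept its direction in all 14. Era+VK replicate 1 alone gave -0.67.

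**Figure D4:**
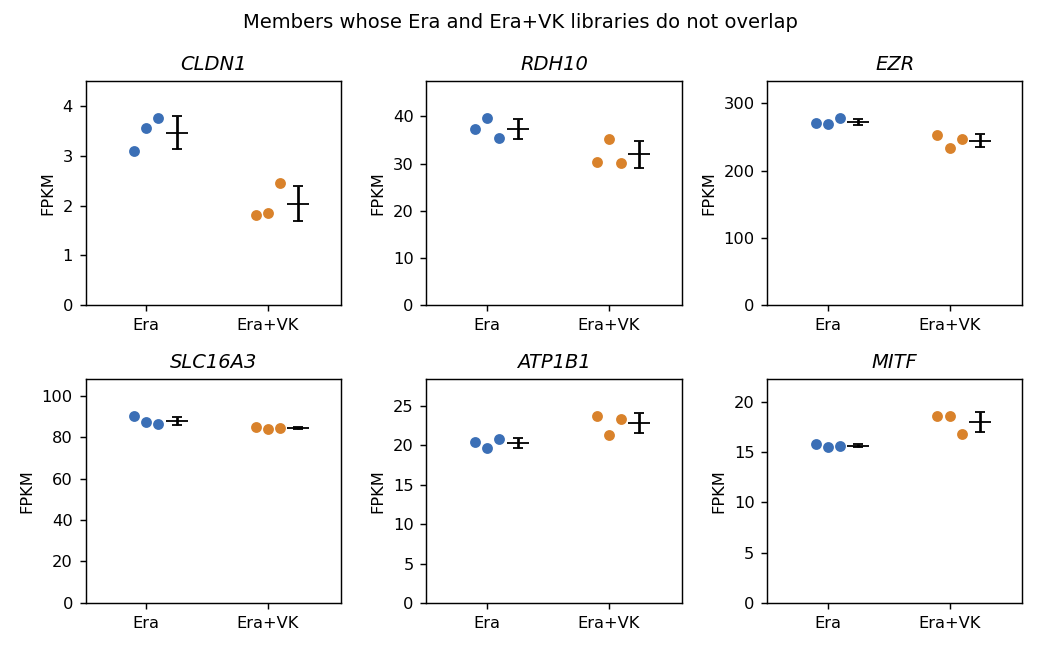
FPKM of the 6 genes whose Era and Era+VK libraries do not overlap, on linear axes from 0, 1 point per library, with the mean and SD (n = 3) as a bar beside the points. CLDN1 shows the widest gap for its level, 3.09 FPKM or more in Era against 2.45 or less in Era+VK, and RDH10 the narrowest, 35.34 or more against 35.29 or less.

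EZR encodes ezrin, which ties actin to the apical microvilli of the RPE. It was the most abundant gene of the list, at 271, 269 and 278 FPKM in Era and 252, 233 and 247 FPKM in Era+VK. No Era+VK library reached the Era range, and the log2 fold change was -0.16 (SE 0.05, 95% interval -0.27 to -0.05), with an adjusted p of 0.188 in limma and -0.11 for Era+VK replicate 1 alone. Its relatives were MSN (moesin, mean 53.1 FPKM, log2 fold change -0.17, adjusted p = 0.113) and, added after its values were seen, RDX (radixin, mean 23.4 FPKM, log2 fold change 0.08, adjusted p = 0.371).

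TJP1 (ZO-1), the scaffold under tight junctions, read 8.21, 7.40 and 7.56 FPKM in Era and 9.65, 7.58 and 8.46 FPKM in Era+VK, with a log2 fold change of 0.13 (-0.06 to 0.32, adjusted p = 0.486 in limma). OCLN (occludin) read 2, 1.79 and 1.80 FPKM in Era and 1.83, 1.25 and 1.84 FPKM in Era+VK, with -0.12 (-0.36 to 0.11, adjusted p = 0.588), which was -0.01 without Era+VK replicate 2. In both genes the libraries of the groups overlapped.

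The epithelial cadherins CDH1 (E-cadherin) and CDH3 (P-cadherin, the cadherin typical of native RPE) were at 0.02 to 0.04 FPKM and at 0 to 0.06 FPKM. CDH2 (N-cadherin), by contrast, read 44.0, 44.2 and 45.4 FPKM in Era and 43.8, 44.1 and 44.3 FPKM in Era+VK, with a log2 fold change of -0.02 (-0.10 to 0.07, adjusted p = 0.873 in limma). Of 44 other junction and polarity genes taken as context, 41 had a row and 29 were tested. None had an adjusted p under 0.05, 6 were higher (20.7%, against 10.4% of all genes tested) and 2 lower (6.90%, against 5.42%) in Era+VK at an unadjusted p under 0.05, and the median log2 fold change was 0.06. CTNNA1 (alpha-catenin), the cadherin linker, had the highest mean, 61.7 FPKM, with a log2 fold change of 0.05. Of the genes chosen after their values were seen, CGNL1 (paracingulin) was nearest to the threshold on the higher side, with a log2 fold change of 0.28 (adjusted p = 0.0826), and CLDN11 had -0.32 (adjusted p = 0.217).

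**Figure D5:**
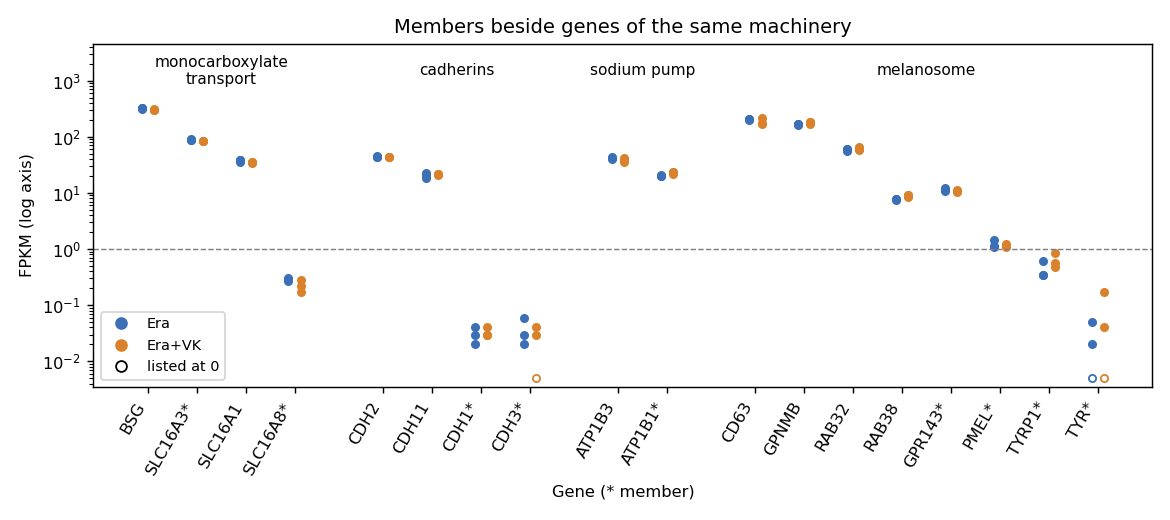
FPKM by library on a log axis for genes of the list (asterisk) beside genes of the same machinery, Era in blue, Era+VK in orange, open points listed at 0, dashed line at 1 FPKM. SLC16A8, CDH1, CDH3, TYRP1 and TYR lie below the line, while BSG, SLC16A3, CDH2 and CD63 lie above 40 FPKM.

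Secreted and phagocytosis genes of the RPE were taken as context too. CTSD, the lysosomal protease that digests outer segments, averaged 459 FPKM (-0.11 on the log2 scale, adjusted p = 0.306 in limma), TIMP3, an inhibitor of metalloproteinases in Bruch's membrane, 138 FPKM (-0.04), and EFEMP1, a matrix glycoprotein, 99.3 FPKM (-0.20, adjusted p = 0.205). SERPINF1 (PEDF), the anti-angiogenic factor of the RPE, lay between 0.40 and 0.91 FPKM, and MERTK, the receptor that starts outer segment uptake, between 0.42 and 0.64 FPKM. Of the 14 tested genes of this list, none had an adjusted p under 0.05, and 1 was higher (7.14%, against 10.4% of all genes tested) and 2 lower (14.3%, against 5.42%) at an unadjusted p under 0.05. Over all 5 context lists, 89 genes were tested, 0 had an adjusted p under 0.05 and 18 an unadjusted p under 0.05 (20.2%, against 15.8% of all genes tested), with a median log2 fold change of 0.02.

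Markers of other cells were set beside these levels. All 6 endothelial and all 6 neural crest melanocyte markers had means under 1 FPKM. The highest of each were KDR, at 0.46 to 0.80 FPKM, and MC1R, at 0.69 to 1.02 FPKM. CDH5 and SOX10 did not exceed 0.02 FPKM in any library. Of 12 photoreceptor and neural retina genes, 5 had a row. The eye-field factors SIX3 and RAX lay at 26.4 to 28.6 and 7.78 to 8.98 FPKM and PDE6B, a rod phosphodiesterase subunit, at 0.92 to 1.26 FPKM, while RCVRN did not exceed 0.04 FPKM and NRL 0.14 FPKM. Of 16 fibroblast and mesenchymal genes, 15 had a row, 10 were tested and 0 had an adjusted p under 0.05. At an unadjusted p under 0.05, 3 were higher and 3 lower in Era+VK (30.0% each, against 10.4% and 5.42% of all genes tested). The summed level of the 15 genes was 1067 to 1100 FPKM in Era and 904 to 940 FPKM in Era+VK. VIM, which makes up most of that sum, read 942, 952 and 911 FPKM in Era and 771, 792 and 750 FPKM in Era+VK, with an adjusted p of 0.0644 in limma and a log2 fold change of -0.28. Beside VIM, TAGLN (mean 8.98 FPKM, log2 fold change -0.54, adjusted p = 0.0715) and FN1 (37.1 FPKM, -0.11, adjusted p = 0.304) were the lower genes, and PDGFRB (31.6 FPKM, 0.38, adjusted p = 0.122), S100A4 (1.82 FPKM, 0.35, adjusted p = 0.192) and ZEB1 (2.78 FPKM, 0.15, adjusted p = 0.288) the higher ones, the groups not overlapping in any of the 6. CDH2, ACTA2 (12.9 FPKM), TWIST1 (7.46 FPKM) and ZEB2 (4.65 FPKM) had overlapping groups. Among all genes tested, the groups did not overlap in 15.1% with Era+VK higher and in 7.04% with Era+VK lower. Of the collagen and surface markers, COL1A1 lay between 0.52 and 0.79 FPKM, and COL3A1 and THY1 did not exceed 0.05 and 0.02 FPKM. Any link between the fibroblast and mesenchymal genes and the values of CLDN1, EZR and RDH10 was not tested.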

How the data were processed

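RNA-seq of 6 libraries was analysed. The authors deposited FPKM per gene and library with 2 decimals. The submitters' processing notes name cutadapt, HISAT2, StringTie 2.1.6 and mm10, with no role given, while the genes are human. The build and annotation behind the values and any filter are not given in the sources used here. Such values scale with the total of their library, so abundant genes can shift the rest, and they hold no read numbers from which a counting error could be drawn. Low values of 1426 to 1485 single-exon genes in each library gave a whole-read step concentration of 0.216 to 0.243 at the best depth tried. Whole reads at a depth within the range tried would be near 1.

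The 11981 genes averaging 1 FPKM or more over the 6 libraries were fitted in R 4.3.3 with limma 3.58.1 (trend, two-sided) on log2(FPKM + 1), with group as the only term and Benjamini-Hochberg adjustment. The threshold was an adjusted p of 0.05. No 2 libraries held identical values. Across tested genes, libraries correlated at 0.992 to 0.993 within Era and 0.984 to 0.990 within Era+VK. The fit was tested on simulated data with independent normal noise. Such data hold no outlying libraries, so the test does not bear on genes such as BEST1. Positions came from GENCODE 29 (GRCh38), matched by Ensembl identifier for all 32 genes, and promoter windows from RefSeq. The genes named are the list, the 3 context genes of each list with the highest mean FPKM, 6 counterparts, and genes said to be chosen after their values were seen. Another counterpart is not reported here. The list, the context lists and their markers were chosen with earlier results of these data known.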

Additional observations from a re-analysis of the deposited data

How the results depend on the processing

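Of 251 fold changes of the 18 tested genes recomputed over 14 settings, 15 genes kept their direction in every setting, and CLDN1 was the only gene of the list past the threshold in any. The number of list genes with an adjusted p under 0.05, 0 as reported, was 1 (CLDN1) with a minimum of 1 FPKM in every library (adjusted p = 0.0375) and with quantile normalization (0.0450), and 0 to 1 with each library left out in turn (0.0443 without Era+VK replicate 3). Over all genes, the 74 calls became 1 with no filter on low genes, 122 with the minimum of 1 FPKM in every library, 112 with quantile normalization, 35 with Era+VK replicate 1 alone against Era (that lone library being assumed to vary like Era), and 2 to 70 with each library left out, with 2, 2 and 5 calls without Era replicates 1, 2 and 3 and 42 without Era+VK replicate 3. With the replicate number as a block, 42 genes and 0 list genes were called (CLDN1 adjusted p = 0.0534). Same-numbered libraries shared only a number, their deviations from the group means correlating at 0.0709, 0.103 and 0.0210, and 5 of 6 libraries correlated best with their own number, a hint from the data and not from the design.

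The median fold change of the 18 genes, 0.0002, was 0.0852 with Era+VK replicate 1 alone, ran from -0.0579 to 0.0513 with each library left out, and was -0.0275 with quantile normalization. The fold changes of 3 genes changed sign. PMEL went to 0.02001 with Era+VK replicate 1 alone and ran from -0.0728 to 0.0295 with each library left out. RDH11 went to -0.0166 with quantile normalization and ran from -0.0551 to 0.0779 with each library left out. BEST1 went to 0.0302 with a pseudocount of 0.1, 0.0490 after rescaling to TPM, 0.00477 after rescaling without mitochondrially encoded and globin genes, and 2.41 with Era+VK replicate 1 alone, and ran from -1.21 to 1.52 with each library left out. The causes were not tested. With an unknown depth, genes under 1 FPKM support no comparison between the groups.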
